A study of Sus scrofa with 6 samples.

Results

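The genes described here are enzymes of cholesterol synthesis and INSIG1, a sensor that holds the pathway in check, measured in renal cortex of 6 Large White pigs aged 3 months. The list held 8 symbols: MVK, NSDHL, HMGCS1, SQLE, FDPS, FDFT1, LSS and INSIG1. In the gene name column of the porcine Agilent arrays, 3 of the 8 were present, as 11 of 43603 probes: FDPS with 3 probes, SQLE with 3 and NSDHL with 5. These 3 genes are the members by the rule. Another 3 of the symbols were found through accessions, gene numbers or descriptions in the same files (MVK and INSIG1 with 2 probes each, HMGCS1 with 1) and are given beside them under their own count. FDFT1 and LSS were not matched to a probe and are not analysed here.

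Each kidney was hybridised to 1 one-colour array. The control kidneys (n = 3) were taken out, sampled and frozen at once, with no clamp, flush or storage. The ischemia kidneys (n = 3), from other pigs, were clamped for 60 min at 37 °C, rinsed through with cold UW, the University of Wisconsin preservation solution for organs, then held at 4 °C for 24 h before sampling. Warm ischemia, flush and cold storage were always applied together, no kidney was reperfused, and the pigs carried no allele or agent that the labels name.

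Cells make cholesterol from acetyl-CoA through mevalonate, farnesyl diphosphate, squalene and lanosterol. When membranes of the endoplasmic reticulum run low in sterol, SREBP transcription factors are carried to the Golgi by SCAP, cut, and sent to the nucleus, where they switch on nearly every enzyme of the route. INSIG proteins retain SCAP while sterol is plentiful, and INSIG1 is itself an SREBP target. Cells of the renal cortex, like other cells, use the product in their membranes.

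The probes are the sequences that define each measurement, and the set below is shown because its 60-base oligos shared no end sequence with one another, so that probes of 1 gene in it do not repeat the same stretch. Lower case is the probe as deposited, 5′ to 3′. Capitals in the first mark the 15 bases that encode the second aspartate-rich motif of FDPS, which binds the diphosphate substrate through magnesium.
FDPS A_72_P212122: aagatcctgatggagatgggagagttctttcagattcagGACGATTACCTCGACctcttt
FDPS A_72_P565924: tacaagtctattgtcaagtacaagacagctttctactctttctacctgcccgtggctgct
FDPS A_72_P661524: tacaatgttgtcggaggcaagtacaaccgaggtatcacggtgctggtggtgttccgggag
SQLE A_72_P705210: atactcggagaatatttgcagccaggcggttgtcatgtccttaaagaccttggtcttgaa
NSDHL A_72_P467222: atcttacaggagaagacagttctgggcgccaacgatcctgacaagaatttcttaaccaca
NSDHL A_72_P559379: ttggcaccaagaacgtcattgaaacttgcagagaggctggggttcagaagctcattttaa
The other pair of SQLE probes shared 57 of their 60 bases, and 1 pair of the NSDHL probes shared 53, so each such pair counts as nearly the same measurement. The files give no genome build for these probes, and no coordinates are given.

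All 3 members had higher mean levels in the ischemia kidneys, by 0.61 for FDPS, 1.06 for SQLE and 0.48 for NSDHL on the log2 scale, but the groups overlapped in every probe and none passed the test. A single kidney, ischemia 2, stood highest of the 6 in all 11 probes. Ischemia 3, given the same treatment, lay among or below the controls. With ischemia 2 left out, the difference of FDPS was -0.066 and those of SQLE and NSDHL were 0.48 and 0.28. Levels here are log2 of the background-subtracted signal minus the 75th percentile of the same array, and differences are ischemia minus control.

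Between 52.6% and 61.4% of 43803 spots per array were well above background, a share that followed the slide. Each of 3 slides carried 1 control and 1 ischemia array, ischemia 2 with control 1, ischemia 3 with control 2 and ischemia 1 with control 3. On each slide the control lay at position 4 and the ischemia kidney at position 3, and these effects of place and group cannot be told apart. All 15 probes of FDPS, SQLE, NSDHL, MVK and INSIG1 were well above background on all 6 arrays. The size of the difference on the dimmer ones still turned on the background setting. The alternative, normexp, was run with an offset of 50 signal units added to every spot. Such an offset alone shrinks log2 differences on dim spots, and its share was not separated from that of the background estimate. With normexp the difference was 0.46 in place of 0.99 for SQLE A_72_P705210 and 0.11 in place of 0.37 for NSDHL A_72_P114011. It was 0.14 in place of 0.22 for NSDHL A_72_P559379 and 0.33 in place of 0.51 for the dimmer MVK probe. On the brightest SQLE probe it was 1.02 in place of 1.06. The single HMGCS1 probe, for the synthase that makes the precursor of mevalonate, was well above background on none and was not tested. In cortex as a whole, fewer cells of a type and less RNA per cell cannot be told apart.

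**Figure D1:**
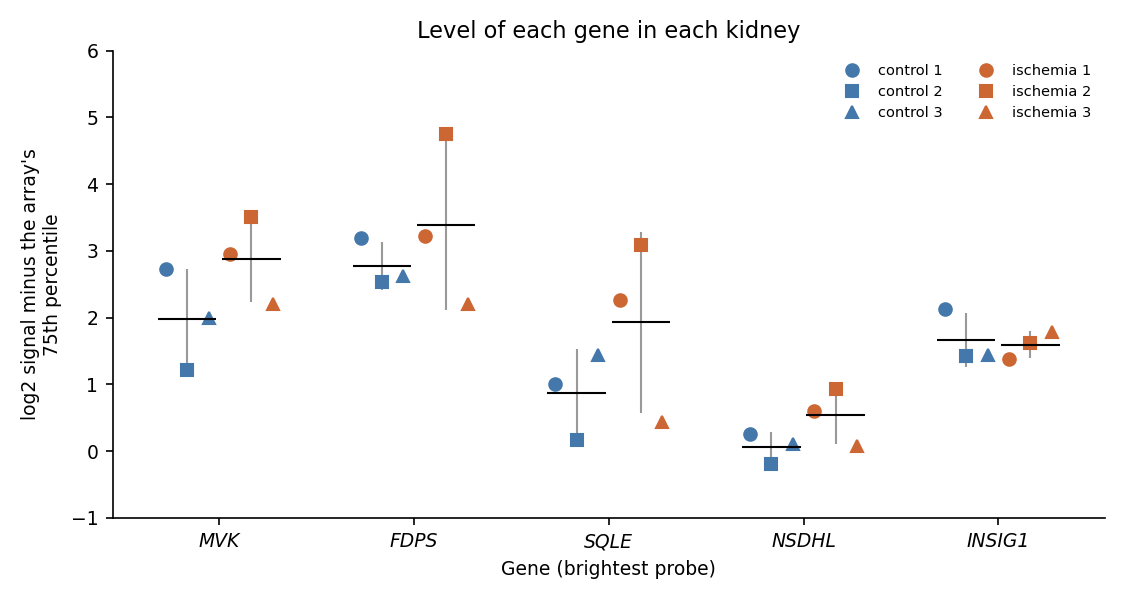
Level of each gene on its brightest probe (y axis, log2 signal minus the 75th percentile of the array) in the 3 control and 3 ischemia kidneys, with horizontal bars for group means and vertical lines for ± SD. Ischemia 2 was highest for MVK, FDPS, SQLE and NSDHL, while INSIG1 was highest in control 1.

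MVK, mevalonate kinase, adds the first phosphate to mevalonate. On its brighter probe its levels were 2.72, 1.21 and 1.99 in controls 1 to 3, and 2.95, 3.50 and 2.20 in ischemia 1 to 3. Ischemia 1 and 2 lay above all controls, and ischemia 3 lay between control 1 and control 3. The difference was 0.91 ± 0.46 (SE, n = 3 per group), and it did not pass (limma adjusted p = 0.864, unadjusted p = 0.0893). The controls themselves spread over an SD of 0.76. On the other MVK probe the levels were -0.37, -1.75 and -1.58 in the controls and -0.74, 0.07 and -1.52 after ischemia, with a difference of 0.51 ± 0.50 (limma adjusted p = 0.941). Both probes placed ischemia 2 highest and control 2 lowest.

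FDPS, farnesyl diphosphate synthase, makes the last intermediate shared by cholesterol, ubiquinone, dolichol and protein prenylation. On its brightest probe (A_72_P212122, the one across the aspartate-rich motif) its levels were 3.19, 2.53 and 2.62 in controls 1 to 3. They were 3.23, 4.76 and 2.20 in ischemia 1 to 3. Ischemia 2 was 3.93-fold above the control mean and 2.89-fold above the next highest kidney, ischemia 3 was the lowest of the 6, and ischemia 1 was close to control 1. The group difference was 0.61 ± 0.60 (limma adjusted p = 0.941). The 2 other probes, at separate places in the transcript, gave the same order at the extremes: ischemia 2 was 3.87-fold and 4.04-fold above the control mean, and ischemia 3 was lowest in both. Their differences were 0.67 ± 0.57 and 0.62 ± 0.62. Ischemia 3 was the lowest kidney in 17.5% of all probes. Over the array as a whole, 0.256% of 24993 probes with a value on every array had ischemia 2 at least 1 log2 unit above all the other kidneys, and the FDPS probes stood 1.44 to 1.53 above them.

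SQLE, squalene epoxidase, carries out the first oxygen-requiring step and is a rate-limiting enzyme of the late pathway. On its brightest probe the levels were 1.01, 0.17 and 1.45 in controls 1 to 3 and 2.26, 3.09 and 0.44 in ischemia 1 to 3. Here ischemia 1 and 2 were both above all controls, and ischemia 3 was below control 1 and control 3. Ischemia 2 was 4.65-fold and ischemia 1 was 2.62-fold above the control mean, whereas ischemia 3 was at 0.740 of it. The group difference was 1.06 ± 0.67 (limma adjusted p = 0.901). The overlapping probe gave 0.98 ± 0.68. The separate, dimmer probe A_72_P705210 read -3.21, -3.78 and -3.00 in the controls and -1.74, -1.54 and -3.74 after ischemia, a difference of 0.99 ± 0.58. On it, ischemia 1 and 2 were closer together, at 3.00-fold and 3.45-fold of the control mean.

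NSDHL, a steroid dehydrogenase that removes a C4 carboxyl group from the sterol ring, varied least among the 3 members on the brightest probes. On its brightest probe the levels were 0.25, -0.20 and 0.11 in controls 1 to 3 and 0.60, 0.93 and 0.07 in ischemia 1 to 3. Ischemia 1 and 2 again lay above every control and ischemia 3 within them. The group difference was 0.48 ± 0.27 (limma adjusted p = 0.884). Over its 5 probes the difference ran from 0.22 to 0.53. On the 2 probes whose sequences are shown, it was 0.25 ± 0.34 and 0.22 ± 0.35, and ischemia 1 was then inside the range of the controls. Ischemia 2 was 1.72-fold to 2.00-fold above the control mean over the 5 probes.

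INSIG1 did not give a single answer. On its brighter probe the levels were 2.13, 1.43 and 1.44 in controls 1 to 3 and 1.38, 1.63 and 1.79 in ischemia 1 to 3, a difference of -0.071 ± 0.26 (limma adjusted p = 0.975). Control 1 was highest there and ischemia 2 lay within the controls. On the dimmer probe the levels were -0.11, -0.55 and -0.44 in the controls and 0.04, 0.78 and -1.31 after ischemia, a difference of 0.21 ± 0.50 (limma adjusted p = 0.965). On that probe ischemia 2 was highest, 2.22-fold above the control mean, and ischemia 3 lowest, at 0.519 of it. The sign for the brighter INSIG1 probe turned to 0.079 with median centring and to 0.15 in the authors' deposited values, so no direction is given for this gene.

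**Figure D2:**
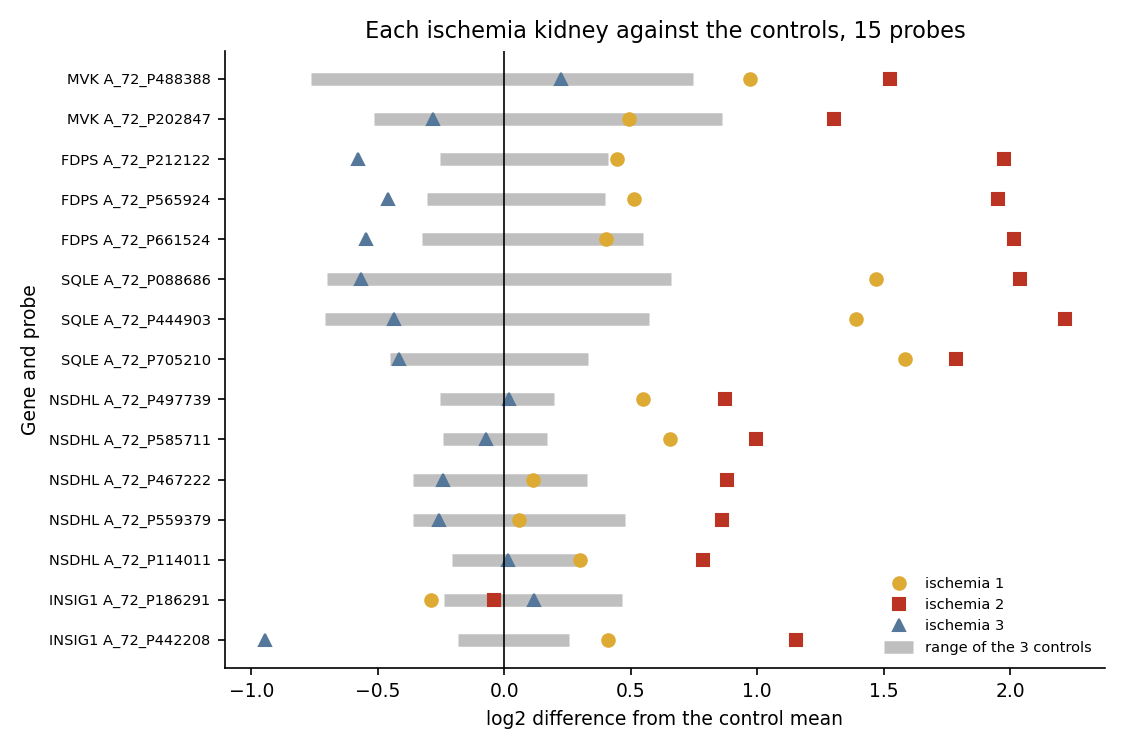
Each ischemia kidney as its log2 difference from the control mean (x axis) for the 15 tested probes (y axis, gene and probe), with a grey bar for the range of the 3 controls. Ischemia 2 lay above all controls in 14 of the 15 probes and ischemia 3 in 0 of them; the brighter INSIG1 probe stands apart.

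Of the 3 members, 0 passed at a limma adjusted p under 0.05, beside 0.00400% of 25013 probes tested over the array, and 0 had an unadjusted p under 0.05, beside 6.30% (2.98% higher and 3.32% lower). In none of their 11 probes did the groups separate, beside 10.9% of all probes (5.88% higher and 5.01% lower). The mean difference was above 0 in 11 of 11 member probes, beside 44.2% of all probes, and the median over the 3 members was 0.61 against -0.042 over all probes tested, a background that moved to 0.11 with median centring and 0.14 in the authors' deposited values. The 11 probes come from 3 genes and partly overlap, so they are not 11 separate observations. With MVK and INSIG1 added, 4 of 5 genes and 14 of 15 probes were higher, and the median was again 0.61. An exact two-sided permutation test of 3 kidneys against 3 cannot give a p below 0.1.

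FDPS and SQLE varied widely among the ischemia kidneys. Over the 3 ischemia kidneys the SD was 1.29 for FDPS and 1.36 for SQLE on their brightest probes, against a median of 0.29 over all probes. On the brightest probes the SD of the 3 controls was 0.36 for FDPS, 0.65 for SQLE, 0.76 for MVK, 0.40 for INSIG1 and 0.23 for NSDHL. The median over all probes was 0.28, so the brightest NSDHL probe varied less than the median probe there. On NSDHL A_72_P467222 and A_72_P559379 the SD of the controls was 0.35 and 0.43. For FDPS, on the brightest probe, 98.8% of all probes had a smaller SD over the ischemia kidneys, for SQLE 98.5% to 99.1% over its probes, for NSDHL 72.6% and for MVK 89.7%. The brighter INSIG1 probe was below the median probe, with 31.3% of probes under it, and the dimmer one above it, with 97.7%.

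Taking the kidneys singly, ischemia 2 was above all 3 controls in 11 of 11 member probes, beside 27.8% of all probes, and the highest of the 6 kidneys in 11, beside 19.4%. Ischemia 1 was above all controls in 8 of 11, beside 22.7%. Ischemia 3 was above all controls in 0 of 11, beside 23.2%, and below all of them in 3, those of FDPS. The median over the 3 members, as a difference from the control mean, was 0.55 for ischemia 1, 1.98 for ischemia 2 and -0.43 for ischemia 3. Among controls it ran from -0.25 in control 2 to 0.20 in control 1.

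Leaving out 1 kidney at a time gave the size of the difference without each of them. Without ischemia 2 the median over the members was 0.28, and 7 of the 11 probes remained above 0, with 4 below. Those below were FDPS A_72_P212122 and A_72_P661524 and NSDHL A_72_P467222 and A_72_P559379. On the brightest probes FDPS then stood at -0.066 ± 0.39, SQLE at 0.48 ± 0.62, NSDHL at 0.28 ± 0.28 and MVK at 0.60 ± 0.49. FDPS A_72_P565924 stood at 0.026 ± 0.38. Without ischemia 3 the median was 1.21, with FDPS at 1.21 ± 0.49, SQLE at 1.80 ± 0.45, NSDHL at 0.71 ± 0.24 and MVK at 1.25 ± 0.47. The smallest limma adjusted p among the 15 probes was then 0.267, and 9 had an unadjusted p under 0.05, beside 7.89% of all probes in the same fit. With weights estimated for each array, control 2, the lowest kidney in 8 of the 15 probes, had a weight of 6.53 and the other arrays 0.51 to 0.95. The differences were then 0.95 for FDPS, 1.81 for SQLE, 0.74 for NSDHL and 1.58 for MVK. In that fit 8 of the 15 probes had an unadjusted limma p under 0.05, beside 17.0% of all probes, and the smallest adjusted p was 0.162. Without any other single kidney all 11 member probes stayed above 0. So on the brightest probes the FDPS difference was not seen without ischemia 2. Those of SQLE, NSDHL and MVK were smaller, as leaving out the highest ischemia kidney must make them, and remained above 0. On the brighter MVK probe the difference was smaller still without control 2, at 0.52 ± 0.45. The other MVK probe went the other way, at 0.11 ± 0.49 without ischemia 2 and 0.25 ± 0.56 without control 2.

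**Figure D3:**
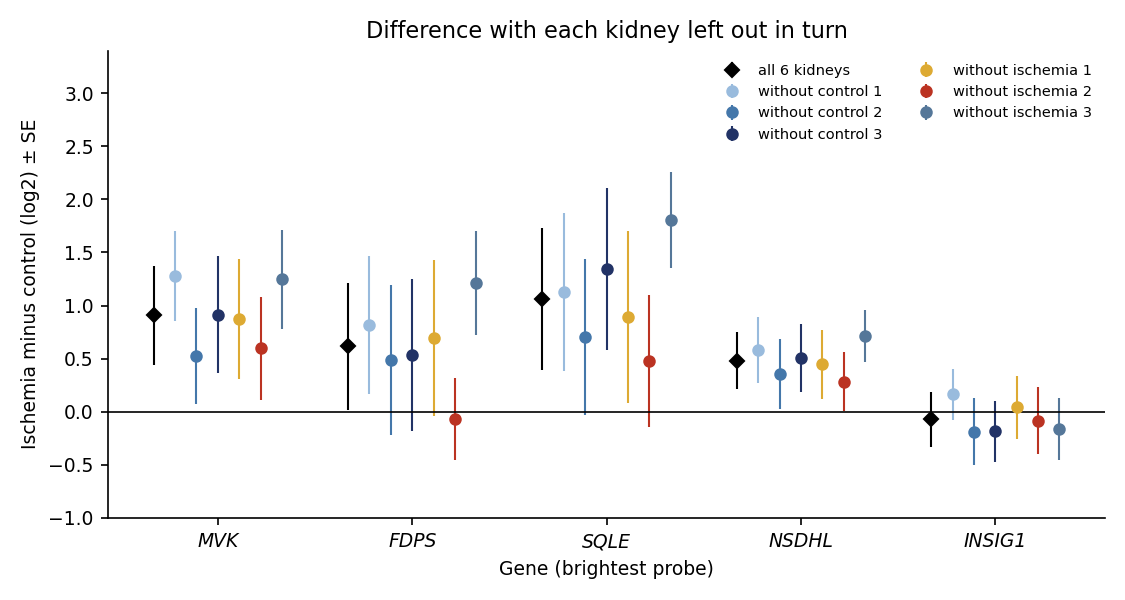
Ischemia minus control (y axis, log2, ± SE from limma) for each gene on its brightest probe, with all 6 kidneys and with each left out in turn. Without ischemia 2, FDPS lay at -0.066, whereas without ischemia 3 it lay at 1.21.

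Values within slides were as follows. The median difference over the members was 1.56 on slide 1, which held ischemia 2 and control 1, 0.27 on slide 2 and 0.61 on slide 3. All 11 member probes were higher on slides 1 and 3, and 6 of 11 on slide 2, where FDPS differed by -0.33 on its brightest probe. MVK differed by 0.78, 0.99 and 0.95 on slides 1 to 3 on its brighter probe. On its other probe it differed by 0.44, 0.23 and 0.84. With slide as a block the differences were unchanged, and unadjusted limma p-values for the brightest probes were 0.0263 for SQLE, 0.0559 for NSDHL, 0.145 for FDPS and 0.00349 for MVK. With the block, 4 of the 15 probes (3 of SQLE and 1 of MVK) had an unadjusted p under 0.05, beside 9.26% of all probes, and the lowest limma adjusted p was 0.318. With both arrays of slide 1 left out, the differences were 0.14 for FDPS, 0.55 for SQLE, 0.38 for NSDHL and 0.97 for MVK.

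A separate list of 14 genes held other enzymes of the route and GGPS1, a prenyl diphosphate synthase outside the sterol route. Of these, 7 were on the array and tested, GGPS1 among them. Of the 7, 6 had a mean difference above 0 and 6 were highest in ischemia 2, and the median difference was 0.41. SC5D differed by -0.034 ± 0.54 and was highest in control 3. GGPS1 differed by 0.16 ± 0.24, with ischemia 1 at -0.18 and ischemia 3 at 0.17 from its control mean. None passed (lowest limma adjusted p = 0.905). PMVK, the kinase after MVK, differed by 0.40 ± 0.26, HSD17B7, which reduces the C3 ketone of the sterol ring, by 0.71 ± 0.51, ACAT2, which joins acetyl-CoA units at the entry, by 0.86 ± 0.71, and CYP51A1, the lanosterol demethylase, by 0.74 ± 0.64. CYP51A1 read 3.47, 2.99 and 3.37 in controls 1 to 3 and 4.37, 5.21 and 2.45 in ischemia 1 to 3. Ischemia 3 was thus the lowest kidney and ischemia 2 the highest, as for FDPS. As differences from the control mean, ischemia 2 stood at 1.94 for CYP51A1 and 0.84 for PMVK, and ischemia 3 at -0.82 and 0.064. Without ischemia 2 the median over the 7 was 0.097, with 4 of 7 above 0.

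The genes that sense sterol and process SREBP had small mean differences between the groups, from -0.25 to 0.25. Single kidneys could spread more, with an SD over the controls of 0.56 for ERLIN1 against a median of 0.28 over all probes. Of 9 tested, 4 were higher and 5 lower, with a median difference of -0.037, and none was highest in ischemia 2. None passed. INSIG2, the sister of INSIG1, differed by 0.25 ± 0.20, ERLIN2 by -0.25 ± 0.25, ERLIN1 by 0.25 ± 0.31 and SCAP, the escort of SREBP, by -0.082 ± 0.18. The genes of the transcription factors, named here after their values were seen, differed by 0.036 ± 0.23 for SREBF2 and -0.053 ± 0.22 for SREBF1. SREBF2 in ischemia 2 lay 0.091 above its control mean, beside 1.98 for FDPS in the same kidney.

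Fatty acid enzymes under SREBP control did not move as 1 group. Of 9 tested, 4 were higher and 5 lower, with a median of -0.084. LPIN1, a phosphatidate phosphatase, read -2.62, -2.86 and -2.70 in controls 1 to 3 and -2.05, -0.94 and -2.30 after ischemia. All ischemia kidneys exceeded all controls, as in 5.88% of probes, and the difference was 0.96 ± 0.36 (limma adjusted p = 0.749, unadjusted p = 0.0303). FASN, fatty acid synthase, differed by 0.63 ± 0.30, ACLY, which makes cytosolic acetyl-CoA, by 0.43 ± 0.23 with separated groups, and ME1, malic enzyme, by -0.61 ± 0.34. These 4 had limma adjusted p-values of 0.749 to 0.882. LPIN1, FASN and ACLY were highest in ischemia 2.

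Among 9 genes of sterol transport and efflux, 6 were higher and 3 lower, and the median was 0.064. SCARB1, the HDL receptor, differed by 0.53 ± 0.27, NPC2 and LIPA, which release cholesterol in lysosomes, by -0.30 ± 0.20 and -0.31 ± 0.23, and NPC1, their membrane partner, by 0.20 ± 0.24. None passed (lowest limma adjusted p = 0.862). ABCA1, the pump that exports cholesterol and that LXR receptors induce when sterol is abundant, is named because of its pattern, seen in the data. On its brightest probe it read 3.46, 3.39 and 3.07 in controls 1 to 3 and 2.49, 1.92 and 4.80 in ischemia 1 to 3. It was lowest in ischemia 2 and highest in ischemia 3, the reverse of FDPS and CYP51A1, and its group difference was -0.24 ± 0.68. The 3 other ABCA1 probes also had ischemia 3 highest and ischemia 2 lowest. NR1H3 and NR1H2, which encode the LXR receptors and were also named after their values were seen, differed by 0.17 ± 0.23 and 0.069 ± 0.22.

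Of 4 tested genes from a list for the isoprenoid side branch, which leads to products other than sterols, 3 were higher, with a median of 0.19. COQ2, of ubiquinone synthesis, differed by 0.51 ± 0.21, with limma adjusted p = 0.778 and separated groups. The prenyltransferase subunits PGGT1B, RABGGTB and RABGGTA differed by 0.29 ± 0.21, -0.14 ± 0.21 and 0.094 ± 0.30.

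**Figure D4:**
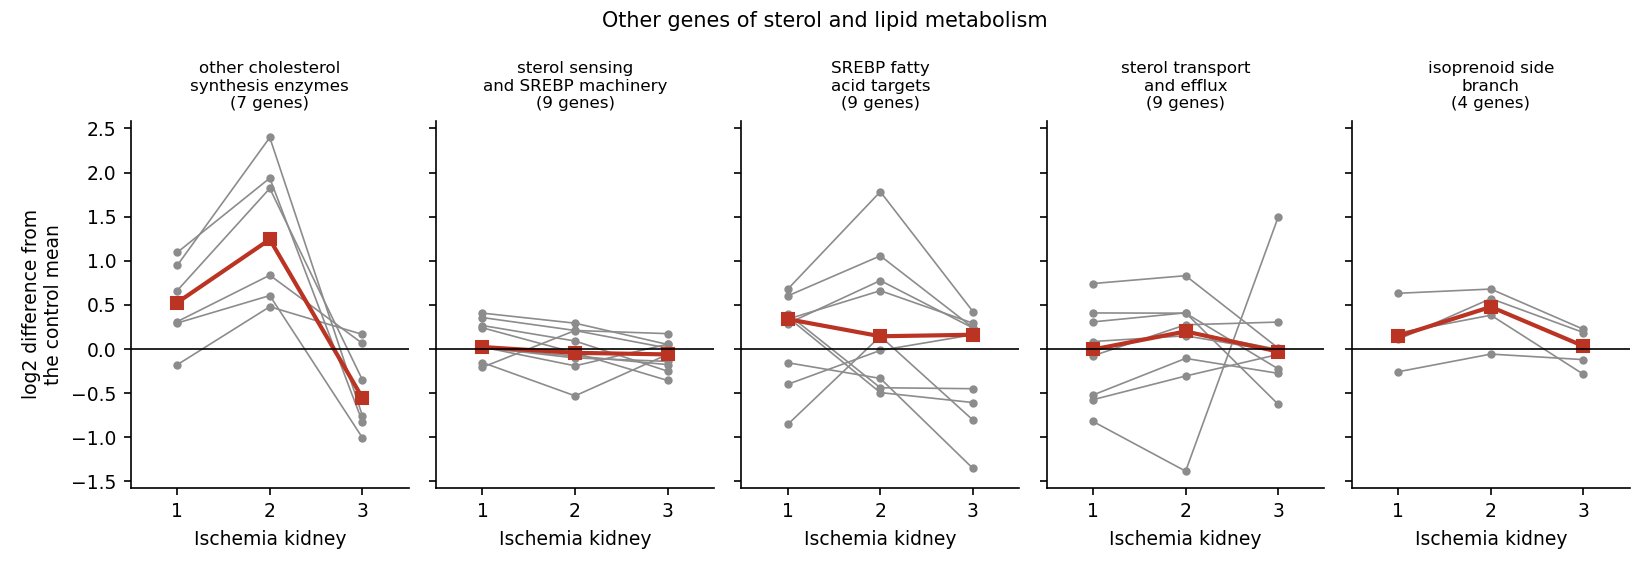
Difference of each ischemia kidney from the control mean (y axis, log2) for genes of 5 lists; grey lines join the 3 values of a gene, red squares are list medians, and kidney numbers carry no order. The 7 genes listed as other cholesterol enzymes, GGPS1 included, had a median of 1.24 in ischemia 2 and -0.55 in ischemia 3. The single line that rises steeply to ischemia 3 among transport genes is ABCA1.

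The genes nearest in profile to the mean of the 3 members over the 6 kidneys, by root mean square distance of centred log2 values, were HSD17B7 at 0.115, MMAB at 0.147, MYBL2 at 0.164 and CYCS at 0.200. MMAB encodes an adenosyltransferase of vitamin B12 and is the gene next to MVK in the RefSeq table of the pig assembly Sscrofa11.1. MYBL2 is a transcription factor of the cell cycle and CYCS is cytochrome c. MMAB read 1.86, 1.27 and 1.62 in controls 1 to 3 and 2.13, 3.23 and 1.46 in ischemia 1 to 3. By the same measure the members' own probes lay at 0.258 to 0.460.

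Markers of other cells were read in the same kidneys. The 1 podocyte marker tested differed by 0.076, and of 4 tested collecting duct markers 1 was higher and 3 were lower. Of 5 markers of loop and distal tubule, 3 were tested, and 2 of these, CALB1 and PVALB, were highest in ischemia 2. The log2 of their summed level was 4.37 to 5.06 in controls, and 5.52, 5.79 and 4.58 in ischemia 1 to 3, with ischemia 2 highest and ischemia 3 among the controls. PVALB read 1.58 in ischemia 2 and -1.40 in ischemia 3, whereas SLC12A1, of the thick limb, read 2.65 and 2.62. Their part in the result was not tested. Proximal tubule markers (5 of 8 tested), each on its brightest probe, had a lower sum in all 3 ischemia kidneys. All 5 genes had an unadjusted limma p under 0.05 (beside 6.30% of all probes, 3.32% lower) and none passed. The other probe of SLC34A1, 1 of the 5, went the opposite way, with a difference of 0.35. The log2 of the sum was 7.95 to 8.21 against 8.53 to 9.07 in controls. Ischemia 2 and 3, the highest and lowest of the 3 ischemia kidneys for the members, both lay in the range 7.95 to 8.21. Of 7 adrenal cortex markers, which would mark a sterol-rich neighbouring tissue, STAR, CYP17A1 and MC2R were well above background on no array, and the log2 sum of the 3 tested was -1.44 in ischemia 2 against -1.13 to -0.93 in controls. Of 5 adipocyte markers, PLIN1 was well above background on no array. The log2 sum of the 3 tested was 2.71 in ischemia 2 against 2.41 to 2.78 in controls. The 5 endothelium markers had a log2 sum of 4.50 in ischemia 2, the lowest of the 6 kidneys, against 4.69 to 4.78 in controls. In ischemia 1 and 3 it was 5.02 and 5.11. Of 4 leukocyte markers tested, 1 was higher (CD163, by 1.42) and 3 were lower, CD247 among them (-1.33). Of 4 fibroblast markers, 2 were higher and 2 lower, COL1A2 among the latter (-1.64). None passed, and the part of these cells in the result was not tested.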

How the data were processed

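Renal cortex RNA of 3 control and 3 ischemia kidneys was measured on 1 Agilent array each. The deposited intensity was background-subtracted and detrended within each array by Feature Extraction 10.10.1.1, per the file headers (11.5.1.1 with R 2.15.2 and limma, per the submitters' processing notes). A second deposited table holds log2 values, which the authors made, with their normalization between arrays not given in the sources used here, and served as an alternative. No spot was saturated.

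Outlier and control spots were left out, and each log2 processed signal was scaled by subtracting its array's 75th percentile. Probes well above background on at least 3 arrays with at least 5 values were tested (25013 of 43603). A gene was shown by its brightest probe. The comparison used lmFit and eBayes of limma 3.58.1 (R 4.3.3) with two-sided p-values, adjusted by Benjamini-Hochberg across every tested probe, and the steps were tested on simulated data. Probes were named by gene name (8561), accession (2009), gene number (1417) or description (7), and 31609 had no symbol. The members and lists were chosen with earlier results of these data known. The text names every member, up to 4 genes of smallest p in each list, and the nearest profiles, of which 1 gene is not reported here. Deviations from the group means correlated at 0.34, 0.10 and 0.33 within slides. Arrays correlated at 0.960 to 0.983, and no pair held identical values. Alternatives covered scaling, background, filters, outlier spots, blocks, variance trend, array weights, probe averaging and each kidney or slide left out. The number of arrays limits precision.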

Additional observations from a re-analysis of the deposited data

How the results depend on the processing

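The median over the 3 members stayed above 0 in all 21 alternatives, from 0.28 to 1.21. Its lowest and highest values came from leaving out ischemia 2 and ischemia 3. The slide and replicate blocks, in this balanced design, and the variance trend could not move it from 0.61. The changed filters on dim probes and the outlier spots kept also left it at 0.61, as they left the brightest member probes unaltered. These settings are no separate evidence on its sign. Leaving out 1 kidney gave 2 to 3 members higher, 0 past the threshold, and a median of 0.097 to 0.88 for the other enzymes. The median over the 5 tested genes ran from 0.28 to 1.21 in the same way. On the brightest probes, only FDPS without ischemia 2 (-0.066) changed sign among the 3 members. In the same fit NSDHL A_72_P467222 (-0.064) and A_72_P559379 (-0.099) also fell below 0. On its brighter probe INSIG1 changed sign with median centring (0.079), the deposited values (0.15), array weights (0.079) and slide 1 left out (0.15). It also did so without control 1 (0.16) or ischemia 1 (0.039), and ran from -0.19 to 0.16 with 1 kidney left out. The mean of all INSIG1 probes stood at 0.068. The dimmer INSIG1 probe ran from -0.27 without ischemia 2 to 0.78 without ischemia 3. With the replicate number as a block the median was 0.61 and 0 members passed (lowest limma adjusted p = 0.994). Deviations of same-numbered kidneys correlated at -0.348, -0.168 and -0.0496. Deviations were centred within each group and slide mates correlated positively, which pulls the other pairs towards negative values. The correlations therefore cannot show whether the number is a pairing. The cause of each change of sign was not tested. Median centring moved the median of all probes from -0.042 to 0.11. The deposited table held 4 of the 11 member probes. The slide alternatives and the median over 5 genes were chosen after seeing the data.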
